A study of Ovis aries with 18 samples.

Results

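The miR-30 family was followed in the plasma of Polish Longwool ewes as 5 rows of a count table of 364 small RNA features. The rows are all those named miR-30 with a letter, namely oar-miR-30a-5p, oar-miR-30a-3p, oar-miR-30b, oar-miR-30c and oar-miR-30d (written below without the sheep prefix oar), and all 5 passed the filter on low counts that left 168 features. One set of ewes ate high-fat feed over 14 weeks (OBESE) and was compared with a set on standard feed (CTRL), with 6 ewes assigned to each. Ewes of both diets were female, had been ovariectomized and carried estradiol implants, so every library comes from animals without ovaries under hormone replacement, and the labels give no ages. Plasma taken at weeks 7, 10 and 14 of the diet gave 3 libraries per diet and week, 18 in all, from a study of leptin resistance in obesity. The labels do not tie libraries to ewes, so p-values measure the spread between libraries, which could partly be technical. The same ewe may have given libraries at several weeks.

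MicroRNAs (miRNAs) are short RNAs cut from a hairpin precursor, and guide a silencing complex to messenger RNAs through their seed, a short stretch near the 5′ end. Either arm of the hairpin can be kept, and the names mark the arm as 5p or 3p. The mature 5p miRNAs of the miR-30 family (miR-30a-5p, miR-30b, miR-30c and miR-30d) share 1 seed and so a large part of their predicted targets, whereas miR-30a-3p comes from the opposite arm of the miR-30a precursor and has another seed. In human and mouse cells the family is studied in fat cell differentiation, in heart and kidney, and in autophagy, where miR-30a targets Beclin 1. RefSeq's gene list for the sheep genome ARS-UI_Ramb_v3.0 names the 4 miR-30 genes of these rows. The miR-30d and miR-30b genes are next to each other with no annotated gene between them. The miR-30c gene lies within the bounds of NFYC, which encodes a subunit of the transcription factor NF-Y, and the miR-30a gene lies within a long non-coding RNA gene beside OGFRL1.

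Library totals ranged from 388574 to 1269829 counts. In CTRL, replicate 1 of week 7 and replicate 3 of week 14 had the lowest TMM scaling factors of the series, 0.653 and 0.718, and shares of miR-16b, the most abundant miRNA, of 53.9% and 55.1%. Levels are in CPM, counts relative to the library total after scaling by TMM, a factor that sets the bulk of features level between libraries. A lower plasma level from fewer releasing cells and one from less miRNA released per cell cannot be told apart here.

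The family made up 1.41% ± 0.234 of the counts in OBESE and 1.16% ± 0.424 in CTRL libraries (SD, n = 9 each), from 1.10% to 1.95% in OBESE and from 0.546% to 2.02% in CTRL. The diets overlapped widely in this total, which was not tested. One member carried most of it. miR-30d took 79.8% ± 5.40 of the family counts over the 18 libraries, miR-30a-5p 17.0% ± 5.25, miR-30a-3p 2.59% ± 0.546, miR-30b 0.317% ± 0.149 and miR-30c 0.222% ± 0.0956. A sequenced miRNA is read whole, so counts of different members were compared without division by length, although library chemistry captures different sequences with different efficiency.

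The order miR-30d, miR-30a-5p, miR-30a-3p, miR-30b, miR-30c held in 14 of 18 libraries, and in the other 4 miR-30c exceeded miR-30b. miR-30d had between 2.82 and 9.92 counts for each count of miR-30a-5p, and miR-30a-3p had between 4.71 and 32.5 for each of miR-30b. miR-30b and miR-30c were the neighbours that could not be ordered, with a ratio from 0.333 to 2.80 and a median of 1.53. Both lay close to the limit of these libraries, with 6 to 79 counts of miR-30b and 5 to 48 of miR-30c, against the 3 counts taken here as the floor. The gene neighbours miR-30d and miR-30b were at very different levels, with 122 to 745 counts of miR-30d for each count of miR-30b and a median of 284.

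**Figure D1:**
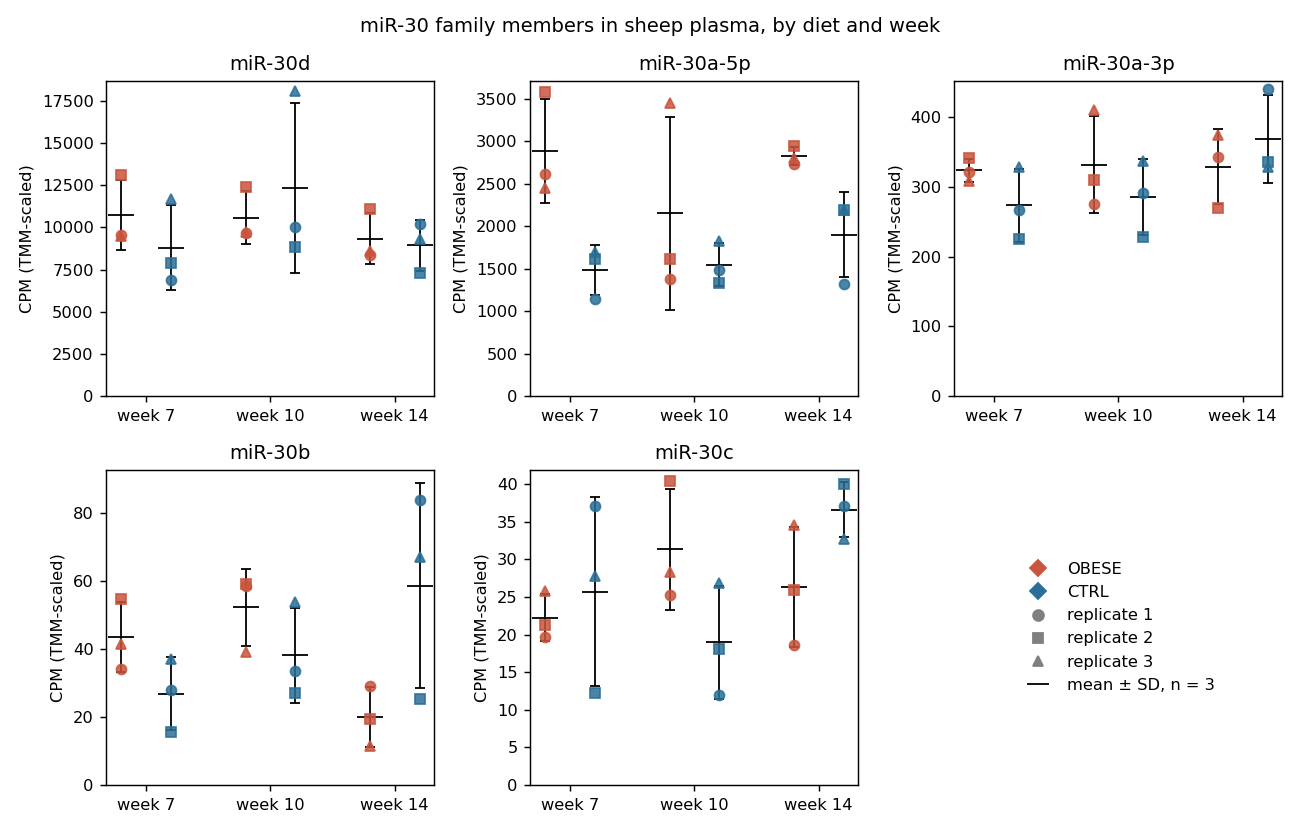
Levels of the 5 family members in CPM (y axis, linear, from 0, with its own scale in each panel) at weeks 7, 10 and 14 (x axis). Each point is a library, its shape the replicate number, and black marks are the mean ± SD of 3 libraries. At weeks 7 and 14 the OBESE libraries of miR-30a-5p lay above every CTRL library of the same week, and at week 14 the OBESE libraries of miR-30b lay between 11.5 and 29.0 CPM.

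Between the diets, the member with the clearest difference was miR-30a-5p, a 5p guide strand. Over the 9 OBESE libraries it ranged from 1384 to 3580 CPM with a median of 2729, and over the 9 CTRL libraries from 1142 to 2192 CPM with a median of 1613. All OBESE libraries but OBESE week 10 replicates 1 and 2 lay above the highest CTRL library. The diet difference averaged over the 3 weeks was a log2 fold change of 0.67 (SE 0.175, 95% interval 0.30 to 1.04). It did not pass the test over 168 features (edgeR quasi-likelihood, Benjamini-Hochberg adjusted p = 0.113, unadjusted p = 0.00135). edgeR called 0 of the 168 features (0%) in this comparison, while 19 (11.3%) had an unadjusted p under 0.05 and the member count was 1 of 5. DESeq2, which gave 363 features a p-value, called 2 at its adjusted threshold and 27 at an unadjusted p under 0.05. limma-voom on the 168 features called 0 and 20. miR-30a-5p passed with DESeq2 (adjusted p = 0.0419), in edgeR without the filter on low counts (0.0329, 1 of 4 calls among 364 features) and in edgeR without OBESE week 10 replicate 1 (0.0350, 1 of 2 calls among 168 features). When the weeks of each replicate number were added up, leaving 3 values for each diet, its log2 fold change was 0.58 and its edgeR adjusted p was 0.631.

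From the other arm of the same hairpin, miR-30a-3p, usually the less abundant strand, ranged from 269 to 410 CPM in OBESE libraries, with a median of 321, and from 225 to 441 CPM in CTRL libraries, with a median of 329. The diets overlapped over most of this range, and the averaged log2 fold change was 0.10 (95% interval -0.19 to 0.39, edgeR adjusted p = 0.772). For miR-30d, the most abundant 5p member, the averaged log2 fold change was 0.04 (95% interval -0.28 to 0.37, edgeR adjusted p = 0.946), with 8344 to 13107 CPM in OBESE and 6887 to 18075 CPM in CTRL libraries. Those of the scarce members miR-30b and miR-30c were -0.12 (95% interval -0.73 to 0.48) and -0.00103 (95% interval -0.64 to 0.64), and without TMM scaling both had the opposite sign (0.06 and 0.18). Of the 5 members 3 were positive and 2 negative, with a median of 0.04, against 82 positive and 86 negative and a median of -0.00218 over all 168 features.

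**Figure D2:**
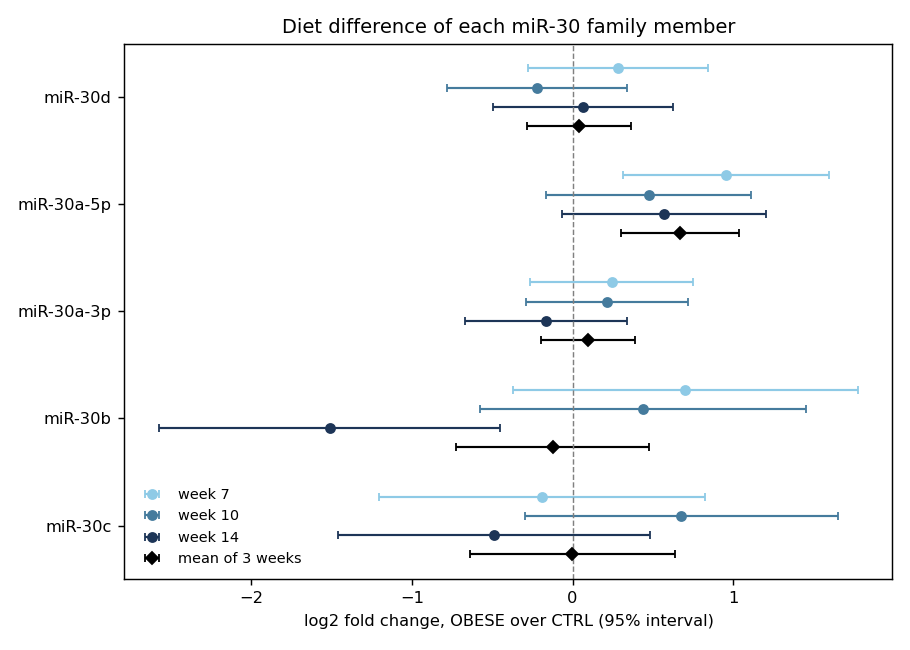
Log2 fold change of OBESE over CTRL (x axis) for each family member (y axis) at weeks 7, 10 and 14 and averaged over the 3 weeks, with 95% intervals from edgeR. The averaged interval of miR-30a-5p, 0.30 to 1.04, is the one that lies wholly above 0 among the 5 averaged values, and the interval of miR-30b at week 14 lies wholly below 0.

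Because both arms of miR-30a are cut from 1 precursor and counted in 1 library, their ratio does not depend on how libraries are scaled. At week 7 the OBESE libraries held 8.16, 10.5 and 7.91 counts of miR-30a-5p per count of miR-30a-3p, against 4.29, 7.17 and 5.15 in the CTRL libraries, with no overlap. At week 10 the values were 5.02, 5.23 and 8.42 in OBESE and 5.11, 5.85 and 5.41 in CTRL libraries, so that the OBESE libraries lay below, within and above the CTRL range. At week 14 they were 7.97, 10.9 and 7.49 in OBESE and 3.00, 6.54 and 6.66 in CTRL libraries, again with no overlap. The replicates are given in the order 1, 2, 3. The libraries held 115 to 426 counts of miR-30a-3p, and the exact 95% binomial interval of the ratio ran from 2.66 to 3.38 in the lowest library and from 9.30 to 12.9 in the highest. These intervals cover counting error only.

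Over the 3 weeks, the arm ratio was 7.95 ± 1.99 in OBESE and 5.46 ± 1.29 in CTRL libraries (SD, n = 9 each). The difference in log2 ratio, averaged over weeks, was 0.54 (exact permutation test that shuffled diet labels inside each week, 8000 assignments, two-sided p = 0.00525, adjusted p = 0.0144 over 7 within-library measures), with a higher OBESE mean in each of the 3 weeks. The weekly differences were 0.70 at week 7 (exact p = 0.1), 0.15 at week 10 (exact p = 0.9) and 0.77 at week 14 (exact p = 0.1), where 0.1 is the smallest p that 3 libraries against 3 can give. The week 10 difference rested on OBESE replicate 3. The log2 ratios of OBESE replicates 1 and 2, 2.33 and 2.38, lay below the CTRL mean of 2.44. Averaged over weeks by replicate number, the log2 ratios were 2.78, 3.07 and 2.98 for OBESE and 2.01, 2.70 and 2.51 for CTRL numbers 1, 2 and 3. These also did not overlap, and the exact permutation p was 0.1, again the smallest possible, so this coarser comparison could not pass. The permutation over 8000 assignments counts the 9 libraries of a diet as independent, although same-numbered ones may share ewes. The level of miR-30a-5p in these libraries was known when the ratios were chosen, so the p-values are not independent support for its diet difference.

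No other precursor could serve for comparison. Of the 17 precursors with both arms named in the table, miR-30a was the one with both arms among the 168 tested features, and every other had a library with 0 counts of at least 1 arm.

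**Figure D3:**
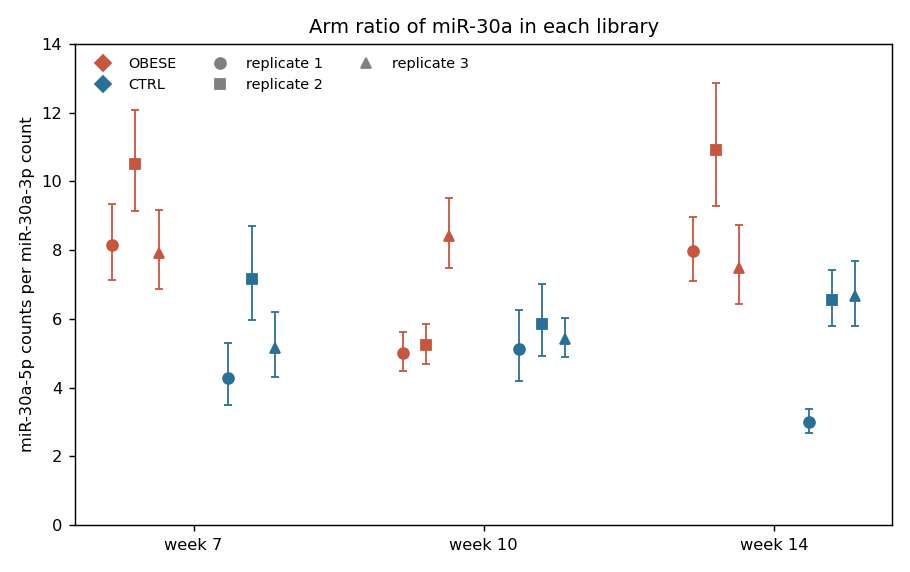
Counts of miR-30a-5p per count of miR-30a-3p in each library (y axis, linear, from 0) at weeks 7, 10 and 14 (x axis), with exact 95% binomial intervals for counting error. Point shapes give the replicate number. The OBESE libraries lay above the CTRL libraries at weeks 7 and 14, and at week 10 only OBESE replicate 3, at 8.42, did.

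The balance between the abundant 5p members moved in the same direction. miR-30a-5p made up 19.8% ± 4.96 of the family counts in OBESE and 14.3% ± 4.09 in CTRL libraries (SD, n = 9 each), a difference of 5.55 percentage points (exact permutation within weeks, p = 0.004, adjusted p = 0.0144 over the 7 measures). miR-30d made up 77.2% ± 5.11 in OBESE and 82.5% ± 4.47 in CTRL libraries, a difference of -5.32 points (exact p = 0.00825, adjusted p = 0.0144). The log2 ratio of miR-30a-5p to miR-30d differed by 0.57 (exact p = 0.0065, adjusted p = 0.0144). These 3 measures and the arm ratio share the miR-30a-5p count or its complement, so they are not 4 separate results. The permutations count the 9 libraries of a diet as independent, and averaged over weeks by replicate number none of the 3 measures passed (exact permutation, 3 against 3, adjusted p = 0.233 for the share of miR-30a-5p and its ratio to miR-30d, and 0.350 for the share of miR-30d). The miR-30d shares by number were 77.9%, 80.0% and 73.7% for OBESE and 83.8%, 79.7% and 83.9% for CTRL, which overlapped. The shares of miR-30a-3p, miR-30b and miR-30c did not pass (exact permutation within weeks, adjusted p = 0.557 for each). The mature miR-30a-5p and miR-30d are near-identical, as are miR-30b and miR-30c, and the sources used here do not say how the authors assigned reads that match more than 1 of them. The part of read assignment in these shares and in the arm ratio, which uses the same miR-30a-5p count, was not tested.

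Library by library, OBESE week 7 held 3.65, 3.66 and 3.89 counts of miR-30d per count of miR-30a-5p, against 6.03, 4.87 and 6.88 in CTRL week 7. At week 10 the values were 6.97, 7.65 and 2.82 in OBESE and 6.76, 6.63 and 9.92 in CTRL libraries. At week 14 they were 3.06, 3.77 and 3.06 in OBESE and 7.74, 3.32 and 4.24 in CTRL libraries. The diets were apart at week 7 and overlapped at weeks 10 and 14 in this ratio.

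The weeks were next taken one at a time. At week 7, miR-30a-5p was at 2616, 3580 and 2444 CPM in OBESE libraries and at 1142, 1613 and 1694 CPM in CTRL libraries. The lowest OBESE library was above the highest CTRL library, and the log2 fold change of 0.96 (SE 0.304, 95% interval 0.32 to 1.60) had the smallest p of the 168 features without passing (edgeR adjusted p = 0.382). Groups did not overlap for 15 of 168 features (8.93%) at this week, and for 1 of the 5 members. Unadjusted, 9 features (5.36%) and 1 member had a p under 0.05. miR-30d had a log2 fold change of 0.28 (95% interval -0.28 to 0.85), miR-30a-3p of 0.24 (-0.26 to 0.75) and miR-30b of 0.70 (-0.37 to 1.77), none past the test. miR-30c had -0.19 (-1.20 to 0.82), which turned positive without TMM scaling (0.10).

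At week 10, miR-30a-5p was at 1384, 1618 and 3448 CPM in OBESE libraries and at 1485, 1333 and 1823 CPM in CTRL libraries. A single OBESE library was high and the other 2 lay within the CTRL range. The log2 fold change of 0.47 (95% interval -0.16 to 1.11, edgeR adjusted p = 0.722) became -0.04 without OBESE week 10 replicate 3. miR-30d was at 9647, 12378 and 9713 CPM in OBESE libraries and at 10038, 8837 and 18075 CPM in CTRL libraries, the last being the highest value of the series. Its log2 fold change of -0.22 (95% interval -0.78 to 0.34, edgeR adjusted p = 0.822) became 0.16 without that CTRL library. miR-30a-3p (0.22), miR-30b (0.44) and miR-30c (0.68) had positive values with edgeR adjusted p from 0.722 to 0.795, and 0 members had an unadjusted p under 0.05, against 6.55% of all features. Groups did not overlap for 0 members and 13.1% of all features.

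At week 14, miR-30a-5p was at 2729, 2938 and 2802 CPM in OBESE libraries and at 1321, 2192 and 2191 CPM in CTRL libraries. The OBESE libraries were tightly grouped and all above the CTRL libraries, with a log2 fold change of 0.57 (SE 0.302, 95% interval -0.07 to 1.21, edgeR adjusted p = 0.672). Groups did not overlap for 16 of 168 features (9.52%) and for 1 of the 5 members. Unadjusted, 13 features (7.74%) and 1 member, miR-30b, had a p under 0.05. For miR-30a-3p the log2 fold change was -0.16, for miR-30c -0.49 and for miR-30d 0.06, with edgeR adjusted p from 0.810 to 0.940. The change of the miR-30a-5p diet difference after week 7 was not called by the interaction test, at -0.48 for week 10 (SE 0.427, edgeR adjusted p = 0.918) and -0.39 for week 14 (SE 0.426, adjusted p = 0.921).

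The scarce member miR-30b, whose gene neighbours that of miR-30d, had week 14 means on opposite sides of its earlier means in the 2 diets. In OBESE libraries it was at 34.2, 54.6 and 41.5 CPM at week 7, at 58.6, 59.1 and 39.2 CPM at week 10, and at 29.0, 19.5 and 11.5 CPM at week 14. All OBESE libraries of week 14 lay below those of both earlier weeks. In CTRL libraries it was at 27.8, 15.7 and 37.1 CPM at week 7, at 33.4, 27.1 and 53.8 CPM at week 10, and at 83.8, 25.2 and 67.0 CPM at week 14. Here 2 of the 3 libraries of week 14 lay above all earlier ones, and replicate 2 stayed within their range.

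None of the tests of miR-30b passed over 168 features. Within OBESE the log2 fold change was -1.08 for week 14 against week 7 (SE 0.504, edgeR adjusted p = 0.605) and -1.35 for week 14 against week 10 (SE 0.499, adjusted p = 0.250). Within CTRL it was 1.13 for week 14 against week 7 (SE 0.506, adjusted p = 0.963). The diet difference at week 14 was -1.51 (SE 0.503, 95% interval -2.57 to -0.45, adjusted p = 0.319), and its change from week 7 was -2.21 (SE 0.714, 95% interval -3.72 to -0.71, unadjusted p = 0.00642, adjusted p = 0.286), the third smallest p among 168 features. For that interaction 10 features (5.95%) had an unadjusted p under 0.05. In the OBESE comparisons, groups did not overlap for 13.7% of features between weeks 14 and 7 and for 15.5% between weeks 14 and 10. The OBESE libraries of week 14 held 28, 12 and 6 counts of miR-30b, so single counts weigh on these values.

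miR-30c and miR-30d showed their widest week differences in CTRL libraries. miR-30c was at 37.1, 40.04 and 32.8 CPM in CTRL week 14 and at 11.9, 18.1 and 26.9 CPM in CTRL week 10, with no overlap and a difference of 0.90 in log2 (SE 0.465), at an adjusted p of 0.848 in edgeR. Groups did not overlap for 5.36% of all features in that comparison. For miR-30d, CTRL week 10 exceeded CTRL week 7 by 0.48 in log2 (SE 0.267), at an adjusted p of 0.947 in edgeR, and by 0.10 without CTRL week 10 replicate 3. In OBESE libraries the week comparisons of miR-30d gave log2 fold changes between -0.20 and -0.02. Across all 6 week comparisons edgeR called 0 features and 0 members, and the members with an unadjusted p under 0.05 were miR-30b in 3 of them, OBESE week 14 against weeks 7 and 10 and CTRL week 14 against week 7, where 7.74%, 10.1% and 3.57% of all features had one. The shares of all features were 4.17% for OBESE week 10 against week 7, 1.79% for CTRL week 10 against week 7 and 2.98% for CTRL week 14 against week 10, each with 0 members. In OBESE week 10 against week 7, CTRL week 10 against week 7 and CTRL week 14 against week 7, groups did not overlap for 16.1%, 4.76% and 5.36% of features and for 0 members.

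Members differed widely in how closely they varied together. Over the 18 libraries, the rank correlation of log2 CPM between the neighbours miR-30d and miR-30b was 0.57, that between the 2 arms of miR-30a was 0.47, and that between the abundant 5p members miR-30d and miR-30a-5p was 0.18. Between miR-30a-5p and miR-30b it was -0.15. Among 49 other named miRNAs, the closest to miR-30a-5p were miR-22-3p (0.62) and miR-26a (0.58), and the closest to miR-30a-3p were miR-26b (0.68) and miR-143 (0.54). miR-191, which is abundant in human platelets, was the closest to both miR-30d (0.70) and miR-30b (0.62), followed by miR-23a (0.55) and let-7g (0.52). The closest to miR-30c were let-7c (0.60) and miR-133 (0.46). These values describe libraries that share scaling, diets and possibly ewes, and carry no test.

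For context, 14 other miRNAs studied in fat cell differentiation or insulin signalling were listed, of which 12 were tested. For the averaged diet difference 8 were positive and 4 negative, against 82 and 86 of all features, with a median log2 fold change of 0.03 (0.22 without TMM scaling, which placed the median of all features at 0.16). edgeR passed 0 of the 12 in any diet comparison, and 1, 1, 0 and 1 had an unadjusted p under 0.05 at weeks 7, 10 and 14 and averaged, where 5.36%, 6.55%, 7.74% and 11.3% of all features had one. miR-26a, a regulator of insulin signalling in mouse liver, had 0.32 (SE 0.132, edgeR adjusted p = 0.285) in the averaged comparison. miR-26b had 0.64 at week 7 (SE 0.276, adjusted p = 0.759), and miR-29a, which targets collagen genes in mouse, had 0.56 at week 10 (SE 0.231, adjusted p = 0.642).

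Markers of the cells that release miRNA into plasma were compared as summed levels. The 3 blood cell miRNAs counted here (miR-16b, miR-106b and miR-25, of 6 listed) together ranged from 359332 to 578808 CPM in OBESE and from 397363 to 828880 CPM in CTRL libraries. Nearly all of this sum was miR-16b, which alone made up 42.7% to 55.1% of the counts of a library. The CTRL maximum was in CTRL week 7 replicate 1, the library with the lowest TMM factor. All 3 blood cell miRNAs had negative averaged log2 fold changes, with a median of -0.28. The 3 platelet miRNAs counted (miR-191, miR-199a-3p and miR-21, of 4 listed), of which miR-21 is also on the fat and insulin list, ranged from 24785 to 56018 CPM in OBESE and from 28842 to 44471 CPM in CTRL libraries. The muscle miRNA miR-133, the one counted of 3 listed, ranged from 7.68 to 41.3 CPM in OBESE and from 2.38 to 127 CPM in CTRL libraries, and neither of the 2 liver miRNAs listed had a row by that name. The averaged log2 fold change was positive for 2 platelet miRNAs and negative for 1 (median 0.06), and was -0.51 for miR-133. In that comparison 0 of these blood cell, platelet and muscle miRNAs had an unadjusted edgeR p under 0.05, against 11.3% of all features. By week, the log2 fold change of miR-133 was -1.95 at week 7, 1.26 at week 10 and -0.83 at week 14. An unadjusted edgeR p under 0.05 was found for miR-133 at week 7 (5.36% of all features) and for 1 platelet miRNA at week 10 (6.55%). At week 14 it was found for 0 of them (7.74%). None passed after adjustment at any week. The part of blood cells, platelets or muscle in the diet difference of miR-30a-5p was not tested. Without both CTRL libraries of low TMM factor, which held the highest shares of miR-16b, the averaged log2 fold change of miR-30a-5p was 0.67 and the arm ratio difference 0.55.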

How the data were processed

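Plasma small RNA libraries (QIAseq miRNA kit with molecular identifiers, AVITI, single reads of 76 nucleotides, RNA from 200 µL of plasma) are described per the labels' protocols. The authors deposited raw counts per miRNA, in a table and in 1 file per library, which differed in 0 values. Per the submitters' processing notes cutadapt 4.9, Bowtie 1.3.1 and DESeq2 1.42 were used, without stated roles. The sources used here do not name the build, the miRNA annotation, the handling of reads matching several miRNAs, or whether counts are reads or molecules. Mature sequences were not used here.

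Differences were fitted with edgeR 4.0.16 under R 4.3.3 (filterByExpr by group with minimum count 10 and minimum total 15, TMM, glmQLFit and glmQLFTest on 6 groups), two-sided, with Benjamini-Hochberg adjustment over 168 features and a threshold of 0.05. Standard errors were derived from each log2 fold change and its F statistic. limma 3.58.1 and DESeq2 1.42.0 served as alternatives. DESeq2 adjusted its p-values under its default settings, which can leave features of low count out of the adjustment. Log2 ratios used counts + 0.5. Other scalings, no filter on low counts, a replicate block, counts summed over weeks and leaving out each library were also tried. Within-library measures were tested in Python 3.11.15 by exact permutation. Likeness between miRNAs is Spearman's rho of log2 CPM (prior count 2). The edgeR step was tested on simulated data. Replicates of a group differed by at least 30.2 times the sampling noise (chi-square per degree of freedom), so none was a repeat deposit. The members, lists, tests and rule for named miRNAs (all members, the 2 closest named miRNAs to each, and list members with an unadjusted p under 0.05) were chosen with earlier results of these data known.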

Additional observations from a re-analysis of the deposited data

Results flagged for a closer look

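The share of miR-30b among the family counts is singled out because the diets separated in opposite directions at 2 weeks. At week 10 every OBESE library had a higher share than every CTRL library, with means of 0.404% and 0.269% and a difference of 0.135 percentage points. At week 14 every OBESE library had a lower share, with means of 0.162% and 0.503% and a difference of -0.341 points. The diet difference in share thus changed by -0.476 points between week 10 and week 14. The gaps were narrow. The nearest OBESE and CTRL libraries had 0.288% and 0.281% at week 10, and 0.253% and 0.255% at week 14. In CPM of miR-30b the diets overlapped at both weeks. The measure was picked for this separation from the CPM and share of each member and the log2 ratios, over all pairs of weeks. That choice alone fixes the outcome of a permutation within both weeks, so the change has no independent test here. The OBESE libraries of week 14 held 28, 12 and 6 counts of miR-30b. The cause was not tested.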

How the results depend on the processing

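All 12 comparisons had 0 member calls in the analysis reported. For the averaged diet difference, DESeq2 and edgeR without the filter on low counts each gave 1 member call, miR-30a-5p. DESeq2 made 2 calls, with 363 features given a p-value, and edgeR without the filter made 4 over 364. Leaving out 1 library gave 0 to 1 member calls, among 2 calls over 168 without OBESE week 10 replicate 1. All other alternatives and comparisons gave 0 member calls. Averaging over weeks by replicate number leaves differences as they are by construction, and those in log2 arm ratio (0.54), log2 ratio of miR-30a-5p to miR-30d (0.57), share of miR-30a-5p (5.55) and share of miR-30d (-5.32) then had adjusted exact p of 0.233, 0.233, 0.233 and 0.350. The first 3 were at the smallest unadjusted p that 3 against 3 allow, 0.1, and the share of miR-30d was at 0.2 with overlapping diets. In all 18 fits without 1 library these 4 passed, with adjusted exact p up to 0.0477. Without TMM scaling the list of fat and insulin miRNAs had a median of 0.22 in place of 0.03.

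Signs turned for values near 0 or decided by 1 library. With all libraries kept, scaling alone also turned the averaged miR-30b value (-0.12) and miR-30c at week 7 (-0.19). For the averaged difference, miR-30b became 0.060 on library totals and 0.00544 on totals without miR-16b. miR-30c became 0.021 with DESeq2 size factors in edgeR, 0.18 on library totals, 0.13 on totals without miR-16b, 0.045 without the filter, 0.013 with DESeq2 and 0.13 without both CTRL libraries with the lowest TMM factors, and -0.12 to 0.12 without 1 library. miR-30d became -0.044 with summed counts, and -0.064 to 0.17 without 1 library. At week 7 miR-30c became 0.10 on library totals, 0.046 on totals without miR-16b, 0.18 without both CTRL libraries, and -0.54 to 0.17 without 1 library. At week 14 miR-30d became -0.017 with only the compared groups, and -0.078 to 0.17 without 1 library. At week 10 miR-30a-5p spanned -0.044 to 0.66 and miR-30d -0.44 to 0.16 without 1 library. The cause was not tested.

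Same-numbered libraries of 1 diet at different weeks deviated together in 34 of 36 best matches, and their correlations had medians of 0.386 in OBESE and 0.322 in CTRL, against -0.172 and -0.168 for different numbers. They were over 0.1 in 8 of 9 pairs of each diet and reached down to -0.025 in OBESE and 0.014 in CTRL, so the rule that every pair exceed 0.1 was not met and the numbers were not taken to pair samples. With a replicate block edgeR gave 0 member calls in all 12 comparisons. In the diet comparisons this block joined the same number of both diets, so it did not allow for repeated ewes within a diet. Same-numbered libraries of the other diet at the same week had a median correlation of 0.060. With this block the averaged difference of miR-30a-5p was 0.67 (edgeR adjusted p = 0.0554). In limma-voom with a correlation estimated within diet and number (replicate block) it was 0.63 (adjusted p = 0.426). Depth limits miR-30b and miR-30c, at 5 to 79 counts a library.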
